A study of Mus musculus with 12 samples.

Results

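Embryos released from a MEK inhibitor were compared between day 3.5 and day 4.5, on 4 of the 12 arrays of a study of mouse preimplantation embryos. The 4 arrays were those whose titles name released embryos at these days: arrays A and B are replicates 1 and 2 of day 3.5, and arrays C and D are replicates 1 and 2 of day 4.5. All embryos were of the ICR stock. Both released groups had first been held at 4 cells by 20 µM U0126, a small molecule that blocks the MEK kinases upstream of ERK, and had then resumed cleavage. The series' design text gives the day 3.5 embryos as having 8 cells and the day 4.5 embryos as morulae to blastocysts. The other 8 arrays, 2 per group, hold embryos arrested at 4 cells under 20 µM U0126 (day 2.5) and untreated controls, which were morulae to blastocysts at day 3.5, had 4 to 8 cells at day 2.5 and 2 cells at day 1.5. Every released embryo had been exposed to U0126, and untreated embryos of day 4.5 were not analysed here, so age, stage and time since release cannot be told apart within this step. The number of embryos per array and the hour of release are not given in the sources used here.

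In a mouse embryo the 8 cells compact, the outer cells polarise, and they become the trophectoderm, an epithelium that seals itself with tight junctions, pumps fluid into the blastocoel and later invades the uterus. The enclosed cells form the inner cell mass, which then separates into epiblast and primitive endoderm, a choice that depends on FGF acting through ERK. Before any of this, at 2 cells, the new genome is switched on with a short-lived wave of transcripts from repeated gene families, and the messages inherited from the oocyte are cleared. The step studied here runs from 8 cells to morula and blastocyst.

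Levels are log2(intensity + 1) per gene, so that a difference of 1 is a 2-fold change, and 9930 genes reached a level of 5 on at least 2 of the 12 arrays and were tested. Between day 3.5 and day 4.5 of release, 732 genes rose and 633 fell at a Benjamini-Hochberg adjusted p below 0.05 in limma, which is 7.37% and 6.37% of the genes tested. The median rise was 1.70 and the median fall -1.52. Of the rises, 704 exceeded 1, 243 exceeded 2 and 65 exceeded 3. Of the falls, 576, 160 and 31 exceeded these sizes. The arrays of the days did not overlap for any called gene, but neither did they for 29% (upward) and 31.8% (downward) of all genes tested, since 2 arrays stand against 2. An exact test of 2 against 2 arrays cannot go below p = 0.333, and the calls rest on a spread pooled over all 6 groups.

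A set of 163 genes went from below 5 on both day 3.5 arrays to at least 5 on both day 4.5 arrays. Of these, 66 were also below 5 on all 8 arrays of the other groups. Those 66 entered the test only through their day 4.5 arrays, so they could only rise in this step. In the other direction 124 genes dropped from at least 5 to below 5, of which 2 were below 5 on all 8 other arrays. These 2 entered only through their day 3.5 arrays and could only fall. Replicates within a day correlated with r = 0.973 (day 3.5) and r = 0.98 (day 4.5) across genes, against 0.899 to 0.928 between days. The 2 arrays of a day did not lie at random with respect to the step. B was above A for 62.3% of the genes that rose and 34.9% of those that fell, against 45.8% of all genes tested. D was above C for 60.5% of the rises and 34% of the falls, against 46.5% of all. Replicate number therefore moved with the result, and a fit with the number as a block called 1089 rises and 1076 falls. The main fit leaves the number out. The count of either direction was 1365 with all arrays, 400 without A, 759 without B, 663 without C and 321 without D. The labels do not say that replicates were separate cultures or animals. The design text speaks of independent experiments, and the p-values measure the spread between these arrays only. In pooled embryos, fewer cells of a type and less RNA per cell cannot be told apart.

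Adh1, an alcohol dehydrogenase that also oxidises retinol, read 5.10 on A, 8.37 on B, 13.19 on C and 13.44 on D, a rise of 6.58 ± 0.85 (fitted difference ± standard error, 2 arrays per day; adjusted p = 0.00126). Its day 3.5 arrays differed by more than those of any other gene among the 12 largest rises, yet both lay far below day 4.5. Gm4926, a predicted gene, read 3.98 and 4.63 against 10.51 and 11.22 (6.56 ± 0.37, adjusted p = 3.85e-05). With both day 3.5 arrays below 5, its rise is at least 5.86, the distance from 5 to the day 4.5 mean. The peptide transporter gene Slc15a2 read 5.51 and 7.70 against 12.61 and 12.87 (6.14 ± 0.55, adjusted p = 0.00024). Slc22a5, which encodes a carnitine transporter, rose by 5.06 ± 0.52 (adjusted p = 0.000496), or by 2.97 as the mean of its 2 probe sets.

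Lcp1, the gene for the actin-bundling protein L-plastin, read 6.76 and 7.70 at day 3.5 and 12.75 and 12.82 at day 4.5 (5.55 ± 0.68, adjusted p = 0.00102). Tmsb4x, for the actin-sequestering peptide thymosin beta 4, rose from 5.88 and 6.95 to 11.37 and 11.30 (4.92 ± 0.37, adjusted p = 9.92e-05). The others among the 12 largest rises were BC053393 (6.40), Elf5 (5.78), Dmkn (5.16), Gulp1 (5.10, at least 3.68, an adaptor of engulfment), Anxa6 (5.05, at least 3.04, a membrane-binding annexin) and Ndrg1 (5.01). All 12 calls held without each of the 4 arrays in turn. Gm4926, Elf5, Dmkn, Gulp1 and Anxa6 would not have been tested without their day 4.5 arrays, so a fall was hardly open to them. As means over a gene's probe sets Gulp1 stood at 3.03 and Anxa6 at 2.99.

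**Figure D1:**
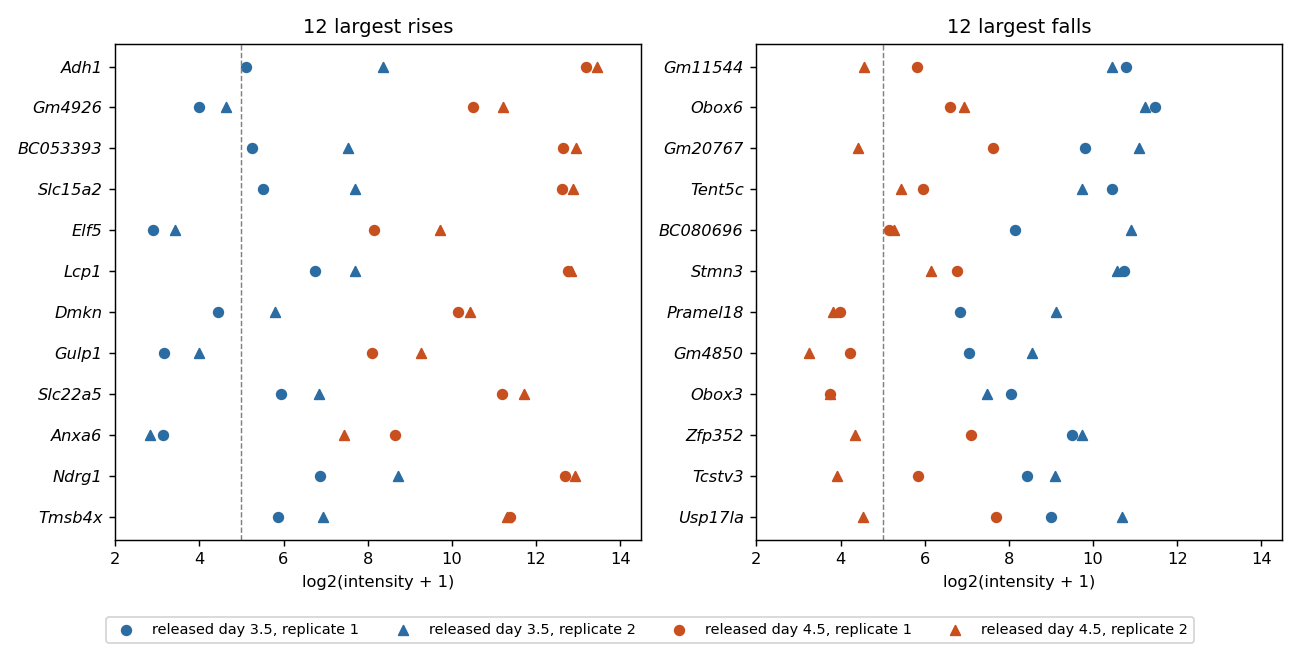
Levels of the 12 genes with the largest rises (left) and the 12 with the largest falls (right) on the 4 released arrays, as log2(intensity + 1) on the horizontal axis. Blue marks are day 3.5 and orange marks day 4.5, circles are replicate 1 and triangles replicate 2, and the dashed line is the level of 5 used for testing. The genes were picked among those in which blue and orange do not overlap. Adh1, at 5.10 and 8.37, has the widest day 3.5 pair among the rises.

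The largest falls came mostly from genes with little known function and from repeated families active at 2 cells. Gm11544, an unnamed gene model, read 10.78 and 10.46 at day 3.5 and 5.82 and 4.56 at day 4.5, a fall of 5.43 ± 0.50 (adjusted p = 0.000249). Tent5c, for a poly(A) polymerase that acts outside the nucleus, read 10.46 and 9.74 and then 5.95 and 5.44 (-4.41 ± 0.45, adjusted p = 0.000496). Its means at control day 1.5, 2.5 and 3.5 were 10.31, 9.54 and 9.29, so released day 4.5 was the group in which it was lowest. Stmn3, a stathmin that destabilises microtubules, fell from 10.73 and 10.56 to 6.77 and 6.15 (-4.18 ± 0.37, adjusted p = 0.00024). Those 3 calls held without each array in turn.

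The 2-cell list, the strongest of all lists in its share of falls, held 12 genes on the array, of which 11 were tested, 7 fell and 0 rose (63.6% fallen, against 6.37% of all genes tested). Its median difference was -3.65, against -0.04 over all genes. Promoters of Zfp352, a zinc finger gene, and Obox3, an oocyte-type homeobox gene, are shown because both genes fell and because Obox proteins belong to the paired-like homeodomain class, for which GGATTA is a known core, read as TAATCC on the opposite strand. The 250 bases before the RefSeq start (GRCm38.p6) run 5′ to 3′ along the gene, Zfp352 at chr4:90218570-90218819 on the plus strand and Obox3 at chr7:15639778-15640027 on the minus strand, with the core in capitals on either strand.
Zfp352: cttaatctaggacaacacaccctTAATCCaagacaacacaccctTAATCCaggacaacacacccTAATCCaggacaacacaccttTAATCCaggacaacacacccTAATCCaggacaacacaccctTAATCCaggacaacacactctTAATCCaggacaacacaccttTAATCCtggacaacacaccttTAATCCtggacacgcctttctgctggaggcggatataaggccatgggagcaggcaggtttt
Obox3: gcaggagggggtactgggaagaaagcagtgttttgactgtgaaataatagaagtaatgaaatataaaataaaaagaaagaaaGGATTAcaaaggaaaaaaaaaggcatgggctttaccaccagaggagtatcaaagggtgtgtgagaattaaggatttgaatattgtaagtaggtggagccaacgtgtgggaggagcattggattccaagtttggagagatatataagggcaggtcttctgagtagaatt
The Zfp352 window held 9 copies of the core, all as TAATCC, with first bases at -227 to -61 from the start. These copies recur within a repeated unit of near-identical bases, so they are not independent of one another. The Obox3 window held 1 copy. Of 32851 promoter windows of this length, 6.25% held at least 1 copy on either strand, 0.295% at least 2 and 0.0244% at least 3, and Zfp352 was the only gene with 9. Windows of genes that fell held a copy in 7.9% of 620 cases, those of genes that rose in 4.69% of 789, and those of all tested genes in 5.14% of 10408. A copy is a match of letters and not a measured site, and copies of the core do not overlap one another in either window.

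Obox3 read 8.05 on A and 7.49 on B and 3.76 on both C and D (-4.01 ± 0.34, adjusted p = 0.000186). Both day 4.5 arrays lay below 5, so its fall is at least 2.77. Obox6, another member of the family, read 11.48 and 11.24 and then 6.60 and 6.93 (-4.59 ± 0.63, adjusted p = 0.00155). Unlike Obox3, it was not highest at 2 cells: its means were 12.39, 13.22 and 9.69 at control day 1.5, 2.5 and 3.5, and 13.03 under U0126. It also fell from control day 2.5 to control day 3.5 (-3.53, limma adjusted p = 0.00367), and its fall after release did not differ from that one by limma's test (-1.06, adjusted p = 0.599). Zfp352 read 9.50 and 9.74 at day 3.5, 7.10 on C and 4.34 on D (-3.90 ± 0.79, adjusted p = 0.0106). Day 4.5 was lower on both arrays, but C kept far more of the Zfp352 signal than D.

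The same split of the day 4.5 pair recurred in other repeated families. Tcstv3 read 8.42 and 9.09 against 5.83 on C and 3.92 on D (-3.88 ± 0.90, adjusted p = 0.0187), and Tcstv1, its close relative, 8.28 and 8.51 against 5.71 and 3.77 (-3.65, adjusted p = 0.00937). Usp17la, from a family of deubiquitinases, read 9.01 and 10.69 against 7.70 and 4.54 (-3.73 ± 1.02, adjusted p = 0.0366). Sp110, a nuclear body gene, fell by 2.35 (adjusted p = 0.0169). Of the 4 members that did not pass, Pramel6 and Pramel7 were above 12 on all 4 arrays, with differences of -0.52 and 0.31. Near-identical copies in these families may share probes, so a value may belong to several genes. Leaving out A, B, C and D in turn left 2, 4, 7 and 2 of the 2-cell members called. Obox3 and Obox6 were called each time. Zfp352, Tcstv3 and Usp17la were lost without A, B and D (adjusted p up to 0.0696, 0.155 and 0.269), and Tcstv1 and Sp110 without A and D (up to 0.0895 and 0.144).

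Some of these genes stood higher at released day 3.5 than in controls of day 2.5 or 3.5. Among all 633 falling genes, 15 stood at least 2 above both control day 2.5 and control day 3.5 in the released day 3.5 mean: Gm20767, BC080696, Pramel18, Gm4850, Obox3, Zfp352, Tcstv3, Usp17la, AA414992, Tcstv1, AF067061, Gm11487, Gm12789, Tdpoz1 and BC147527. This set was picked after its values were seen and is a description. All 15 were at or above 5 at control day 1.5, the 2-cell group, and 13 had a higher mean there than at released day 3.5. In U0126-arrested embryos 10 had a mean of at least 5. AF067061 had the highest means of the 15 under U0126 and at both released days. Its means were 12.63, 7.84 and 3.84 at control day 1.5, 2.5 and 3.5, then 9.35 under U0126, 12.58 at released day 3.5 and 8.99 at released day 4.5. The other genes of the set had released day 4.5 means from 2.21 (Gm11487) to 6.12 (Usp17la).

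At day 4.5 of release AF067061 read 10.22 on C and 7.77 on D after 12.39 and 12.77 (-3.59 ± 0.95, adjusted p = 0.0327). Both day 4.5 arrays lay above its control day 3.5 mean. Pramel18, a Prame-family gene, had a mean of 4.55 under U0126 and read 6.84 and 9.13 at released day 3.5 and 3.98 and 3.82 at day 4.5 (-4.09 ± 0.69, adjusted p = 0.00474), a fall of at least 2.99. Gm4850 read 7.05 and 8.56 and then 4.22 and 3.24 (-4.08 ± 0.59, adjusted p = 0.00235), a fall of at least 2.81. Gm20767 fell by 4.45 ± 0.95 (adjusted p = 0.0135), BC080696 by 4.32 ± 0.79 (0.00694) and AA414992 by 3.69 ± 0.71 (0.00814). Calls were lost for Gm20767 without B and D (up to 0.103), BC080696 without D (0.0527), AA414992 without A and D (up to 0.0768) and AF067061 without A, B and D (up to 0.246).

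**Figure D2:**
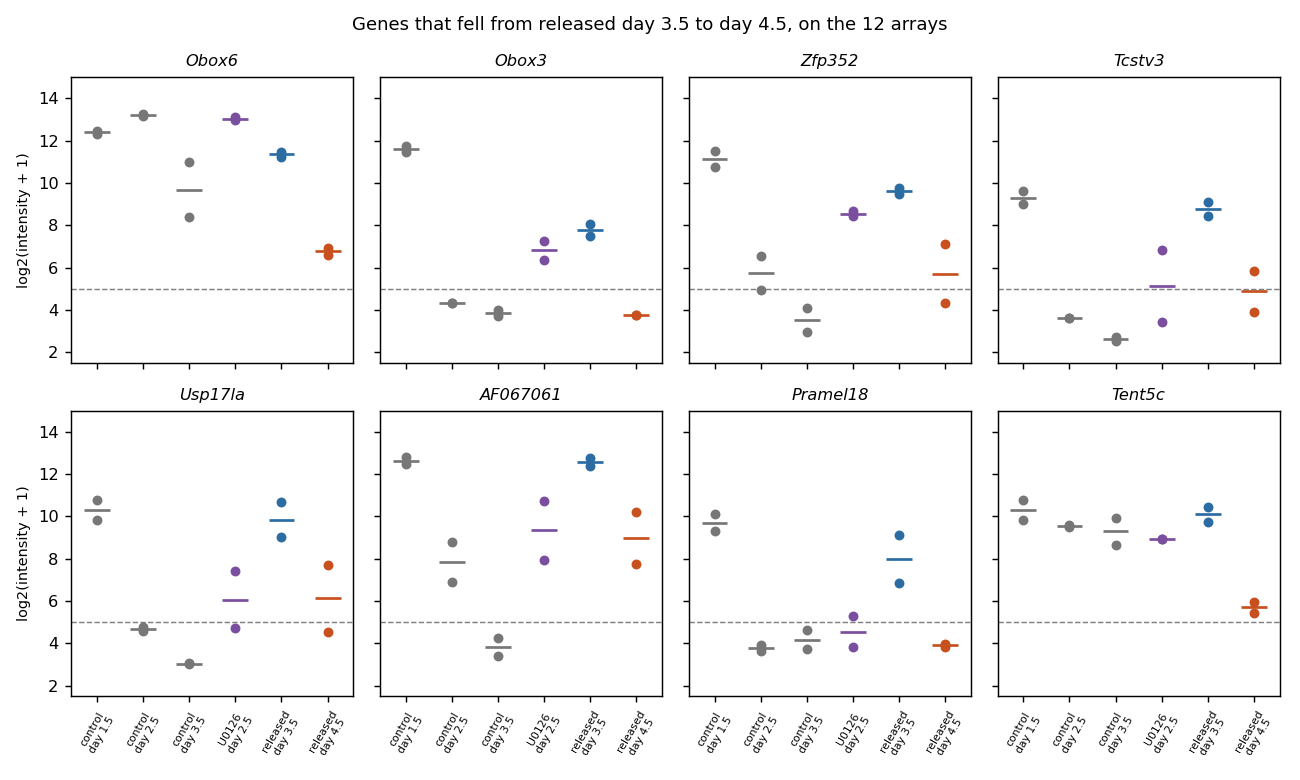
Levels of 8 genes that fell from released day 3.5 to released day 4.5, as log2(intensity + 1), in all 6 groups, with a point per array and a bar at the mean of 2 arrays. Grey is control, purple U0126, blue released day 3.5 and orange released day 4.5, and the dashed line is 5. Zfp352, Tcstv3, Usp17la and AF067061 are high at control day 1.5, low at control day 3.5 and high again at released day 3.5, whereas Tent5c is low at released day 4.5 only.

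Messages of the oocyte went down further. Of 25 tested maternal genes, 9 fell and 1 rose (36% and 4%, against 6.37% and 7.37% of all genes tested). The median difference was -0.68, but 12 of the 25 were below 5 on all 4 released arrays. Nlrp14, an oocyte member of the NLRP family, read 6.43 and 6.80 and then 3.81 and 3.57 (-2.93 ± 0.32, adjusted p = 0.000673), a fall of at least 1.62 with 5 as the lower end. Zp3, for a protein of the egg coat, read 6.97 and 6.15 and then 3.76 and 4.00 (-2.69 ± 0.47, adjusted p = 0.00537), a fall of at least 1.56. Padi6, a component of the oocyte's cytoplasmic lattices, fell by 2.19 ± 0.31 (0.00185, at least 2.00) and Oosp1, an oocyte-secreted protein gene, by 2.31 ± 0.50 (0.0136, at least 0.52). The others that fell were Dazl, Gdf9, Nlrp5, Omt2a and Btg4. Tcl1 went the other way, from 5.12 and 5.09 to 6.17 and 6.41 (1.19, adjusted p = 0.0158). The list kept 3, 6, 5 and 4 falls and 0 rises without A, B, C and D. Zp3 was lost without A (0.0531), Oosp1 without A, C and D (up to 0.112), Dazl without A and D (up to 0.122), and Gdf9, Omt2a, Btg4 and Tcl1 without any of the 4 (up to 0.249), whereas Nlrp14, Padi6 and Nlrp5 held each time.

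Trophectoderm genes rose, with 9 of 17 tested members called higher and 0 lower (52.9%, against 7.37% of all genes), and a median difference of 1.55. Elf5 and Plac1 reached 5 only at released day 4.5, so they entered the test through that group and could only rise. Elf5, an ETS factor of the trophoblast lineage, read 2.91 and 3.41 against 8.15 and 9.73 (5.78 ± 0.42, adjusted p = 9.92e-05, at least 3.94). Its mean over 2 probe sets gave 3.19. Gata2 read 5.14 and 5.43 against 8.95 and 9.74 (4.06 ± 0.47, adjusted p = 0.000761). Tfap2a, an AP-2 factor, read 6.33 and 6.15 against 10.12 and 10.36 (4.00 ± 0.54, adjusted p = 0.00155). All 3 factors were higher on both day 4.5 arrays, as were 29% of all genes tested, and Elf5 was below 5 at day 3.5.

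Eomes, a T-box factor needed by trophoblast, was already present at 7.51 and 7.62 and rose to 11.23 and 10.98 (3.54 ± 0.64, adjusted p = 0.00655). Gata3 moved from 9.80 and 9.40 to 11.27 and 10.92 (1.49 ± 0.42, adjusted p = 0.0417). Plac1, a placental gene on the X chromosome, read 4.22 and 4.53 against 8.43 and 7.99 (3.83 ± 0.35, adjusted p = 0.000249, at least 3.21). Id2, an inhibitor of bHLH factors, rose by 2.28 (0.00855), Krt7, a keratin gene, by 1.96 (0.00396) and Fgfr2, the FGF receptor of trophoblast, by 1.59 (0.0176). Another Fgfr2 probe set gave -0.17, and the mean of its probe sets, 0.60, did not pass (0.131).

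Cdx2, Krt8 and Krt18 were already high at day 3.5 and did not pass. Cdx2, the factor that secures the lineage, read 9.46 and 8.91 against 10.23 and 10.08 (0.98 ± 0.35, adjusted p = 0.0931). Krt8, a simple-epithelium keratin, read 13.18 and 13.17 against 14.58 and 14.26 (1.24 ± 0.42, 0.0768), and its partner Krt18 read 12.23 and 12.28 against 13.89 and 13.73 (1.55 ± 0.59, 0.107). Day 4.5 lay above day 3.5 on all arrays for all 3, as it did for 29% of all genes tested. All 3 passed with the replicate number as a block (0.0212, 0.0166 and 0.0356). Tead4, the factor upstream of Cdx2, read 10.01 and 8.98 against 8.00 and 7.84 (-1.58, adjusted p = 0.0512), and Tfap2c, an AP-2 factor active from early cleavage, differed by 0.08 (0.887). Of the 17 trophectoderm members 6, 8, 8 and 6 passed upward without A, B, C and D. Gata3 was lost without any of the 4 (up to 0.184) and Fgfr2 and Id2 without A and D (up to 0.144 and 0.0809).

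The inner cell mass list had 1 rise and 3 falls among 23 tested genes and a median difference of -0.27. That is 4.35% and 13%, against 7.37% and 6.37% of all genes tested. Nanog read 10.90 and 10.36 against 10.13 and 9.98 (-0.58 ± 0.32, adjusted p = 0.267). Pou5f1, which encodes OCT4, read 11.77 and 10.64 against 10.57 and 9.61 (-1.12 ± 0.46, 0.134; 0.0181 with the block), and its arrays touched, B being only just above C. Sox2 read 5.90 and 6.86 against 8.18 and 7.99 (1.71 ± 0.59, 0.0809). The core of the pluripotency network was therefore not called in either direction.

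Klf2, a Krüppel-like factor, fell from 9.19 and 8.59 to 6.87 and 7.04 (-1.93 ± 0.38, adjusted p = 0.0092). Tbx3 fell from 10.68 and 10.61 to 8.99 and 8.82 (-1.74 ± 0.36, 0.0122), or by -0.87 as the mean of its 5 probe sets, and Dppa4 fell by 1.10 ± 0.28 (0.0267). Tdgf1, the Nodal co-receptor Cripto, rose from 8.02 and 8.31 to 9.82 and 10.42 (1.95 ± 0.48, 0.0242). Of 7 genes of the formative epiblast, the state after implantation, 1 fell (14.3%, against 6.37% of all genes tested). The falling gene was Pou3f1, at levels below 5 on the 4 released arrays (-1.48 ± 0.33, 0.0154). With the block the inner cell mass list had 2 rises and 6 falls and the formative list 2 falls. The inner cell mass list kept 0, 1, 0 and 0 calls without A, B, C and D. Tbx3, Dppa4 and Tdgf1 were lost without any of the 4 arrays (up to 0.0929, 0.161 and 0.169), Klf2 without A, C and D (up to 0.0838) and Pou3f1 without A, B and D (up to 0.141).

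Of 10 tested primitive endoderm genes 3 rose and 0 fell (30% risen, against 7.37% of all genes tested). Sox17 reached 5 only at released day 4.5, so it entered the test through that group and could only rise. Foxq1 would not have been tested without its day 4.5 arrays. Their entry adds to the share of rises. Sox17, a SOX factor of the maturing layer, read 3.11 and 4.19 against 7.0 and 7.87 (3.78 ± 0.51, adjusted p = 0.00154, at least 2.43). Pdgfra, the PDGF receptor of these cells, read 5.04 and 5.73 against 8.30 and 9.38 (3.45 ± 0.49, 0.00214). Foxq1 read 3.64 and 3.42 against 4.62 and 6.39 (1.97 ± 0.54, 0.0358, at least 0.50), and only D reached 5.

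Gata6, the earliest factor of the lineage, read 10.88 and 9.76 against 10.35 and 9.73 (-0.28 ± 0.43, adjusted p = 0.738), with overlapping arrays. Gata4, another GATA factor of the layer, was below 5 on all 4 arrays, at 4.18, 3.18, 3.60 and 3.51 (-0.13 ± 0.45, 0.891). Dab2, an endocytic adaptor of the layer, was at 11.48 or more on all 4 arrays and did not pass (0.63, 0.469). As means over probe sets Sox17 stood at 2.30 and Pdgfra at 2.15. The Sox17 and Pdgfra calls held without each array, and Foxq1 was lost without A, B and D (up to 0.263).

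**Figure D3:**
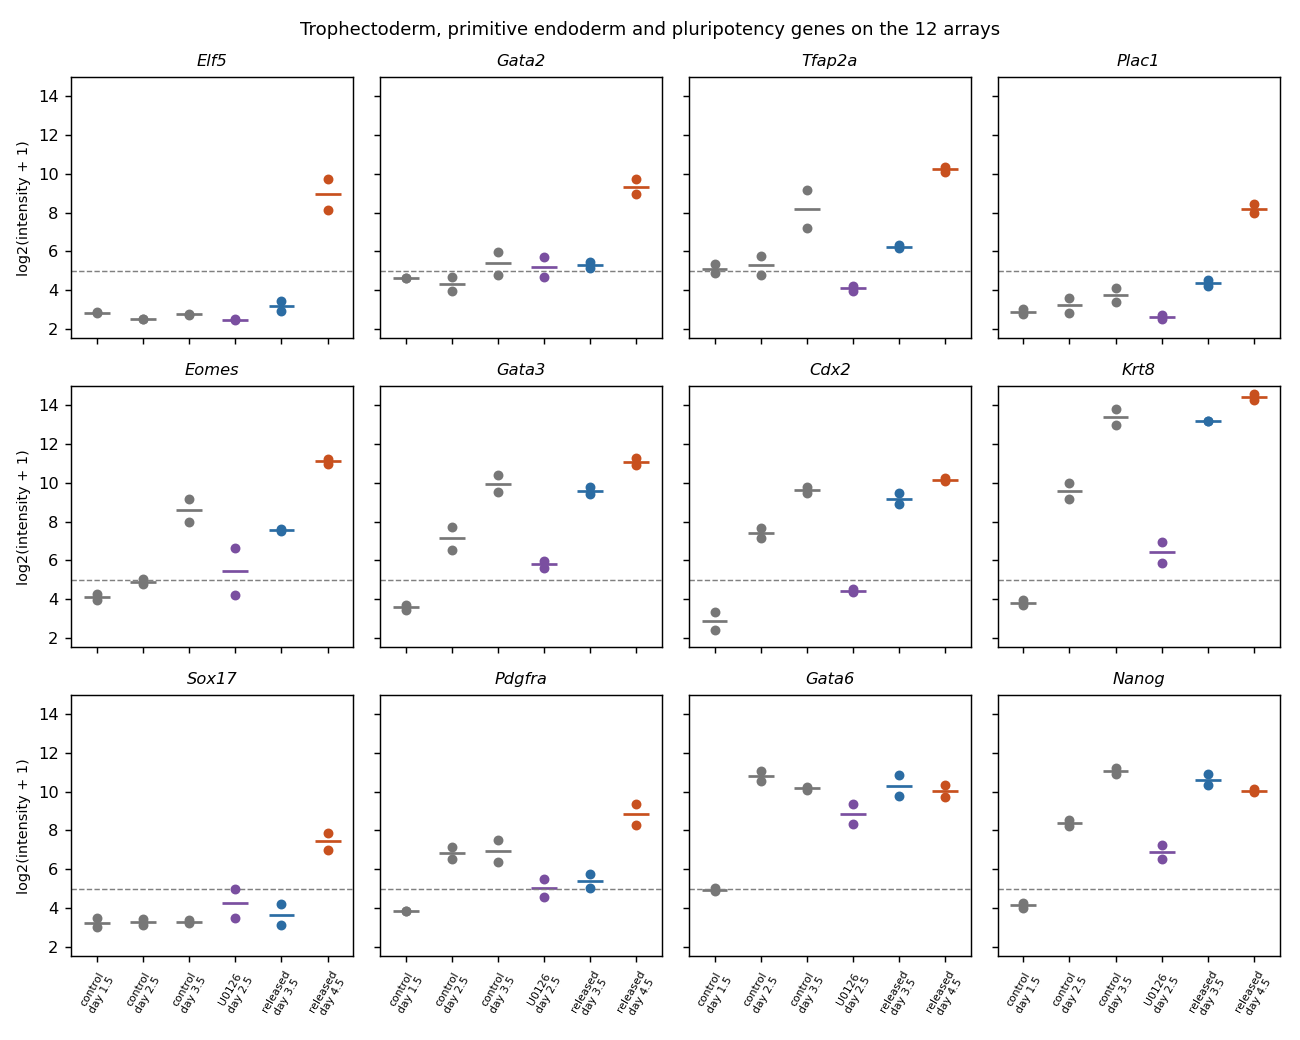
Levels of 12 lineage genes as log2(intensity + 1) on all 12 arrays, with a point per array and a bar at the mean of 2 arrays. Grey is control, purple U0126, blue released day 3.5 and orange released day 4.5, and the dashed line is 5. Elf5, Plac1 and Sox17 have a mean above 5 at released day 4.5 only, Cdx2 and Krt8 are high from released day 3.5 on, and Gata6 and Nanog differ little between the released days.

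Genes of the wall that the trophectoderm builds rose in part. Of 29 tested junction and polarity genes, 6 rose and 1 fell (20.7% and 3.45%, against 7.37% and 6.37% of all genes tested). The median difference was 0.74, and with the block 11 rose and 1 fell. Gjb5 and Cldn3 would not have been tested without their day 4.5 arrays. Gjb5, a connexin of gap junctions, read 3.69 and 4.70 against 7.99 and 7.46 (3.53 ± 0.46, adjusted p = 0.0013, at least 2.72). Dsc2, a desmosomal cadherin, read 5.70 and 6.60 against 9.48 and 9.58 (3.38 ± 0.45, 0.00143), and Dsg2, its desmoglein counterpart, rose by 2.56 (0.00752). Other genes of these junctions did not pass: the desmosomal genes Dsp (1.16, 0.254), Pkp2 (0.74, 0.267) and Jup (0.12, 0.893), and the connexin Gja1, at 13.57 and 13.54 against 13.13 and 13.22 (-0.38, 0.483).

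Cldn3, a tight junction claudin, read 4.89 and 4.47 against 8.23 and 7.10 (2.99 ± 0.38, adjusted p = 0.00126, at least 2.66). Patj, a scaffold of the apical Crumbs complex, read 3.72 and 4.11 against 6.43 and 6.69 (2.64 ± 0.28, 0.000625, at least 1.56), Prkcz, an atypical protein kinase C of the Par complex, rose by 2.20 (0.0246), and Crb3 fell by 1.08 (0.0372). Cdh1, the E-cadherin of compaction, read 11 and 11.18 against 11.59 and 11.88 (0.65 ± 0.31, 0.20). The junction list kept 4, 5, 5 and 4 rises and 0 falls without A, B, C and D, and the calls of Gjb5, Dsc2, Cldn3 and Patj held each time. Dsg2 was lost without A and D (up to 0.0716), and Prkcz and Crb3 without any of the 4 (up to 0.134 and 0.201).

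The machinery that fills the cavity gave 2 rises and 1 fall among 7 tested genes (28.6% and 14.3%, against 7.37% and 6.37% of all genes tested). Atp1b1, the beta subunit of the sodium pump that drives fluid, read 10.43 and 10.78 against 11.82 and 11.93 (1.27 ± 0.32, adjusted p = 0.0264). Fxyd4, a small regulator of that pump, read 5.91 and 5.55 against 7.68 and 7.31 (1.77 ± 0.30, 0.00494). Slc12a2, a sodium-potassium-chloride cotransporter, fell from 10.74 and 10.51 to 8.56 and 8.60 (-2.04 ± 0.39, 0.0081). The water channel genes Aqp3 and Aqp9 did not pass (-0.53 and -0.49). Atp1b1 was lost without any of the 4 arrays (up to 0.163) and Slc12a2 without A and D (up to 0.0649).

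Basement membrane genes and their receptors gave 6 rises and 2 falls among 23 tested, with a median difference of 0.36. That is 26.1% and 8.7%, against 7.37% and 6.37% of all genes tested. Lama1 and Nid2 reached 5 only at released day 4.5, so they entered the test through that group and could only rise. Lama1, a laminin alpha chain, read 3.24 and 3.39 against 6.72 and 7.47 (3.78 ± 0.49, adjusted p = 0.00134, at least 2.09). Nid2, a nidogen that links laminin to collagen, read 3.88 and 4.10 against 5.99 and 6.07 (2.04 ± 0.34, 0.00431, at least 1.03). Sparc, a matrix glycoprotein, rose by 1.99 ± 0.39 (0.00938) and Fn1, fibronectin, by 1.94 ± 0.40 (0.0111). The laminin receptors Itga6 and Dag1 each rose by 1.13, while Itgb5 fell by 1.11 and P4ha1, a collagen prolyl hydroxylase, by 1.28. Of these members 3, 4, 5 and 2 passed in either direction without A, B, C and D, Lama1 and Nid2 each time. Sparc was lost without B, C and D (up to 0.0588) and Fn1 without A, B and D (up to 0.0916). Itga6 and Dag1 were lost without A, C and D (up to 0.166 and 0.147), and Itgb5 and P4ha1 without A, B and D (up to 0.187 and 0.236).

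Genes of hatching and implantation gave 5 rises and 1 fall among 14 tested of 28 on the array, nearly all at low levels. That is 35.7% and 7.14%, against 7.37% and 6.37% of all genes tested. Lif, Lifr and Bmp4 reached 5 only at released day 4.5, so they entered the test through that group and could only rise. Their entry adds to the share of rises. Lif, a cytokine of implantation, read 3.68 and 3.52 against 5.86 and 5.98 (2.32 ± 0.27, adjusted p = 0.000761, at least 0.92). Lifr, its receptor, read 3.69 and 3.23 against 6.09 and 5.71 (2.44 ± 0.41, 0.0044, at least 0.90), and Il6st, the shared gp130 subunit, 2.90 and 2.85 against 4.83 and 4.80 (1.94 ± 0.34, 0.00587). Ligand and both receptor chains were therefore higher on both day 4.5 arrays, as were 29% of all genes tested, although Il6st stayed below 5. Bmp4, a growth factor of the early embryo, rose by 1.56 ± 0.23 (0.00262, at least 0.25), Hbegf, a ligand of EGF receptors, by 0.93 (0.0455, at least 0.22), and Ctsb, a protease, fell by 1.19 (0.0413). The mean of the Il6st probe sets did not pass (0.84, 0.119), and without A, B, C and D 5, 4, 4 and 4 rises remained. Hbegf was lost without any of the 4 (up to 0.222) and Ctsb without A, B and D (up to 0.309).

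Of 19 tested target genes of ERK, the kinase downstream of those that U0126 blocks, 1 rose and 0 fell. That is 5.26% risen, below the 7.37% of all genes tested, and the median difference was 0.08. The riser was Dusp6, a phosphatase that ERK induces and that switches ERK off, at 4.89 and 4.54 against 5.87 and 6.60 (1.52 ± 0.34, adjusted p = 0.0153, at least 1.24). Both day 4.5 values of Dusp6 lay above both day 3.5 values, as for 29% of all genes tested, yet near 5. Fos read 5.65 and 5.82 against 5.92 and 5.82 (0.14 ± 0.37, 0.86), and Egr1, another immediate early gene, 6.20 and 6.04 against 5.31 and 5.74 (-0.60 ± 0.48, 0.466). Spry4, a feedback inhibitor, was below 5 on all 4 arrays (-0.38 ± 0.29, 0.428), and Myc did not pass (0.08 ± 0.28, 0.896).

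Among 15 tested components of the cascade and its receptors, 1 fell and 0 rose, and with the block 3 fell. The 6.67% fallen is near the 6.37% of all genes tested. Fgfr3, an FGF receptor, read 6.48 and 7.0 against 3.90 and 4.24 (-2.66 ± 0.37, adjusted p = 0.00182), a fall of at least 1.74, which held without each array. Map2k1, one of the kinases U0126 inhibits, read 8.86 and 8.96 against 8.96 and 9.15 (0.15, 0.765). Fgf4, the ligand made by inner cells, read 5.18 and 4.83 against 5.76 and 6.19 (0.97 ± 0.37, 0.11). By the probe sets used, the receptor Fgfr2 rose and Fgfr3 fell, and the ligand was not called. Dusp6 was lost without A, B and D (up to 0.143).

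Few cell division genes were called. DNA replication genes gave 1 rise and 1 fall among 40 tested (2.5% each way), with a median of -0.06 and, with the block, 3 rises and 2 falls. Mitosis genes gave 0 rises and 3 falls among 39 (7.69% fallen), with a median of -0.10 and, with the block, 0 rises and 6 falls. Over all genes tested 7.37% rose and 6.37% fell. Gins2, a subunit of the replicative helicase, read 5.47 and 5.16 against 7.54 and 7.61 (2.26 ± 0.35, adjusted p = 0.00324), and Gins3, another subunit, fell by 1.04 ± 0.28 (0.0363). Ccna2, cyclin A2, fell from 12.04 and 11.54 to 10.66 and 10.12 (-1.40 ± 0.29, 0.0112), Cdk1 by 0.93 ± 0.27 (0.0457), and Racgap1, needed for cytokinesis, by 1.16 ± 0.23 (0.0104). Another Racgap1 probe set gave 0.69. Only Gins2 was called without each array, the mitosis list keeping 0, 2, 2 and 0 falls without A, B, C and D. Gins3 and Cdk1 were lost without any of the 4 (up to 0.203 and 0.284), and Ccna2 and Racgap1 without A and D (up to 0.114 and 0.101).

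The p53 targets and cell cycle inhibitors gave 3 rises and 4 falls among 25 (12% and 16%, against 7.37% and 6.37% of all genes tested). Cdkn1a, the inhibitor p21, read 9.74 and 9.73 against 9.29 and 8.84 (-0.67 ± 0.33, adjusted p = 0.213). The GADD45 family split: Gadd45b fell from 8.49 and 8.00 to 6.05 and 5.66 (-2.39 ± 0.42, 0.00613) and Gadd45a fell by 1.28 (0.0253, at least 0.40), while Gadd45g rose from 4.74 and 4.91 to 7.17 and 7.03 (2.27 ± 0.54, 0.0214, at least 2.10). Cdkn1c, the imprinted inhibitor p57, fell by 1.60 ± 0.40 (0.026), Mdm2 by 1.18 (0.035), and Btg2, an antiproliferative gene, rose by 1.61 ± 0.38 (0.0193), as did Cdkn2c by 1.55 (0.049). In the apoptosis list 1 of 20 genes fell (5%, below the 6.37% of all genes tested), and with the block 1 rose and 2 fell. The falling gene was Bik, a BH3-only gene (-1.72 ± 0.36, 0.0125, a bound of 0.03). Single arrays left out in the order A to D left 2, 2, 2 and 0 calls in the p53 list. Gadd45g and Cdkn1c were lost without any of the 4 (up to 0.114 and 0.143), Btg2 without A, C and D (up to 0.147), Gadd45b without A and D (up to 0.0601) and Bik without A, B and D (up to 0.108). Cdkn2c was lost without any of the 4 (up to 0.227), Mdm2 without A, B and D (up to 0.266) and Gadd45a without B, C and D (up to 0.15).

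Of 28 tested stress genes 5 fell and 2 rose, and the list's median was 0.25. That is 17.9% and 7.14%, against 6.37% and 7.37% of all genes tested. Hmox1, the heme oxygenase induced by oxidative stress, read 6.49 and 5.95 against 3.25 and 3.92 (-2.64 ± 0.48, adjusted p = 0.00694), a fall of at least 1.22. Hspa1a, an inducible HSP70, read 7.67 and 6.75 against 5.37 and 4.55 (-2.25 ± 0.55, 0.0233), and its near-copy Hspa1b fell by 1.63 (0.0337). Ddit4, an inhibitor of mTORC1 signalling, fell by 2.02 (0.0214) and Dnajb9, a chaperone of the unfolded protein response, by 1.49 (0.0139). The genes that rose belong to the same response: Xbp1, one of its transcription factors, read 7.94 and 8.70 against 10.21 and 10.66 (2.11 ± 0.43, 0.0105) and Herpud1 5.13 and 3.96 against 6.30 and 7.07 (2.14 ± 0.55, 0.0276). The stress list had 1, 4, 5 and 1 calls without A, B, C and D. Hmox1 was lost without A and C (up to 0.0620), Hspa1a without A and D (up to 0.172), Xbp1 without A and D (up to 0.0929) and Herpud1 without B, C and D (up to 0.191). Hspa1b was lost without any of the 4 (up to 0.189), Ddit4 without A, C and D (up to 0.144) and Dnajb9 without A, B and D (up to 0.131).

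Of 44 tested ribosome biogenesis genes 12 fell and 0 rose (27.3% fallen, against 6.37% of all genes tested). A difference below 0 was seen in 41, and the median was -0.85, where the median of all genes was -0.04. Ddx21, a nucleolar RNA helicase, read 10.70 and 9.98 against 8.38 and 7.75 (-2.27 ± 0.40, adjusted p = 0.00553). Wdr43, of the small-subunit processome, read 10.53 and 9.71 against 8.74 and 8.29 (-1.60 ± 0.35, 0.0138). Wdr12, of the large-subunit pathway, fell by 1.25 ± 0.30 (0.0206) and Bysl by 1.32 ± 0.39 (0.0491). With replicate number as a block, 26 fell and 0 rose.

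For 34 of the 44 genes both day 4.5 arrays lay below both day 3.5 arrays, against 31.8% of all genes tested. Replicates differed along the same line: B lay above A for 6 of the 44 genes and D above C for 12, and A exceeded B and C exceeded D for Ddx21, Wdr43, Wdr12 and Bysl. Single arrays decided these calls: without A, B, C and D 0, 4, 2 and 0 genes passed, and Ddx21, Wdr43, Wdr12 and Bysl were lost without A and D (up to 0.0607, 0.125, 0.163 and 0.298), Bysl also without B and C and Wdr12 without C. Of 28 genes for the ribosome's own proteins, 0 were called in limma, 0 with the block and 0 at an unadjusted p below 0.05, with differences from -0.68 to 0.51.

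Of 65 tested genes of oxidative phosphorylation, 62 had a difference above 0 and the median was 0.53, but only 6 rose by the test (9.23%, near the 7.37% of all genes) and 0 fell, and with the block 16 rose. Atp5a1, the alpha subunit of ATP synthase, read 12.13 and 12.22 against 13.16 and 13.31 (1.06 ± 0.23, adjusted p = 0.0135). Ndufs4, a subunit of complex I, read 7.80 and 7.77 against 9.63 and 9.49 (1.77 ± 0.29, 0.00439), though its probe sets ranged from -0.18 to 1.47 beside the one used. Ndufa6 rose by 1.31 ± 0.33 (0.0255) and Ndufa13 by 1.08 ± 0.30 (0.0403). The list kept 1, 2, 1 and 1 rises without A, B, C and D, Ndufs4 each time. Atp5a1 and Ndufa6 were lost without any of the 4 (up to 0.111 and 0.146) and Ndufa13 without A, C and D (up to 0.267) and after median centring (0.0616).

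Fatty acid oxidation gave 7 rises and 2 falls among 22, with a median of 1.03. That is 31.8% and 9.09%, against 7.37% and 6.37% of all genes tested. Acsl5 would not have been tested without its day 4.5 arrays. Acsl5, an enzyme that activates fatty acids, read 4.42 and 4.92 against 8.07 and 8.13 (3.43 ± 0.42, adjusted p = 0.001, at least 3.10). Acsl4, an isoenzyme that prefers arachidonic acid, went the opposite way, from 9.59 and 10.09 to 6.68 and 6.54 (-3.23 ± 0.40, 0.00106). Both isoenzyme calls held without each array. Cpt2, of the carnitine shuttle, rose by 2.07 ± 0.41 (0.00999) and Cpt1a, its rate-limiting partner, by 1.26 (0.0298), while Slc25a20, the carnitine carrier of the inner membrane, fell by 1.62 ± 0.30 (0.00704). The fatty acid list kept 3, 4, 3 and 2 calls without A, B, C and D. Cpt2 was lost without A, C and D (up to 0.0800), Slc25a20 without D (0.0723) and Cpt1a without any of the 4 (up to 0.164).

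Cholesterol synthesis gave 5 rises and 0 falls among 21 (23.8% risen, against 7.37% of all genes tested). The median was 0.71, and with the block there were 8 rises and 1 fall. Array D stood apart in this list: it lay above C for 19 of the 21 genes, against 46.5% of all genes tested. C lay below the higher day 3.5 array for 10 of the 21, and D for 2. Cyp51, a sterol demethylase, read 8.41 and 8.06 at day 3.5, 8.04 on C and 10.03 on D (0.80, adjusted p = 0.442). Hmgcs1, which makes HMG-CoA, read 11.20 and 11.63 against 12.45 and 13.37 (1.50 ± 0.36, adjusted p = 0.0227). Scd1, a desaturase under the same regulators, read 9.66 and 10.25 against 11.55 and 12.31 (1.98 ± 0.37, 0.00766). Mvk, mevalonate kinase, and Tm7sf2, a sterol reductase, each rose by 1.59 (0.034 and 0.00494), and Idi1 by 1.36 (0.0375). The count of rises was 1, 3, 6 and 1 without A, B, C and D. Hmgcs1 was lost without A, B and D (up to 0.190), Scd1 without A and D (up to 0.0809) and Mvk and Idi1 without A, B and D (up to 0.254 and 0.285).

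Of 20 tested glycolysis genes 2 rose and 2 fell, 10% each way, near the 7.37% and 6.37% of all genes tested, and with the block 4 and 4. Tpi1, triosephosphate isomerase, read 8.16 and 8.13 against 10.82 and 10.27 (2.40 ± 0.37, adjusted p = 0.0032), and Pfkp, a phosphofructokinase, rose by 1.14 ± 0.27 at levels below 5 (0.0214). Ldhb, the lactate dehydrogenase subunit stored in the oocyte, read 7.90 and 8.24 against 6.47 and 5.03 (-2.32 ± 0.47, 0.0104), and Hk1, a hexokinase, fell by 1.75 ± 0.38 (0.0138). The glycolysis list kept 2, 2, 3 and 1 calls, Tpi1 each time, without A, B, C and D. Ldhb was lost without B and D (up to 0.0900), Hk1 without A and D (up to 0.116) and Pfkp without any of the 4 (up to 0.154).

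Of 18 tested amino acid transporter genes 8 rose and 0 fell (44.4%, against 7.37% of all genes), with a median of 0.38. Slc7a8 reached 5 only at released day 4.5, so it entered the test through that group and could only rise. Slc38a2, a sodium-coupled neutral amino acid transporter, read 6.19 and 5.94 against 8.77 and 9.38 (3.01 ± 0.39, adjusted p = 0.0013). Slc7a8, a light chain of the system L exchangers, read 3.06 and 3.03 against 5.21 and 5.53 (2.32 ± 0.28, 0.001, at least 0.37). Slc7a1, a cationic amino acid transporter, read 7.33 and 6.45 against 9.29 and 9.67 (2.59 ± 0.59, 0.0173).

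Slc38a4 rose by 1.88 ± 0.42 (adjusted p = 0.0168), and Slc38a1, Slc6a14, Slc7a6 and Slc7a7 by 1.40 to 1.73. Slc3a2, the heavy chain that carries several of these light chains to the membrane, read 10.95 and 10.32 against 9.98 and 9.81 (-0.74, 0.262). Slc7a5, another light chain of this heavy chain, read 6.55 and 6.22 against 5.60 and 6.29 and was not called either (-0.44, 0.513). As means over probe sets Slc38a2 stood at 1.16 and Slc7a1 at 1.12, the latter not passing (0.0702). The transporter list kept 3, 5, 5 and 2 rises without A, B, C and D, and D lay above C for 14 of the 18 genes. Slc7a1 was lost without B, C and D (up to 0.123), Slc38a4 without A, C and D (up to 0.114), Slc7a6 and Slc7a7 without A and D (up to 0.0708 and 0.0716), Slc6a14 without A, B and D (up to 0.142) and Slc38a1 without any of the 4 (up to 0.209).

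Lipid handling gave 4 rises and 1 fall among 16 endocytosis and lipid transport genes. That is 25% and 6.25%, against 7.37% and 6.37% of all genes tested. Fabp3, a fatty acid binding protein, read 11.29 and 11.48 against 14.06 and 13.50 (2.40 ± 0.52, adjusted p = 0.0138), Plin2, the coat of lipid droplets, 9.86 and 10.08 against 12.24 and 11.60 (1.95 ± 0.41, 0.012), and Pltp, a phospholipid transfer protein, rose by 2.12 ± 0.34 (0.00377). Apom fell by 1.22 ± 0.31 (0.0259, at least 0.49). Lysosomal genes split, 3 up and 5 down of 30 (10% and 16.7%, against 7.37% and 6.37% of all genes tested), and with the block 7 and 6. Tpp1, a peptidase, rose by 1.95 ± 0.37 (0.00745) and Glb1, a galactosidase, by 1.72 ± 0.30 (0.00587). Ctsz, cathepsin Z, fell by 2.80 ± 0.83 (0.0486) and Atp6v0a1, of the proton pump, by 2.04 ± 0.50 (0.0239, at least 0.77). The lipid list kept 1, 2, 1 and 2 calls and the lysosomal list 2, 2, 3 and 0 without A, B, C and D. Fabp3, Apom and Ctsz were lost without any of the 4 (up to 0.0899, 0.130 and 0.298), Plin2 without A and C (up to 0.0868), Tpp1 without A and D (up to 0.0708), Atp6v0a1 without B, C and D (up to 0.139) and Glb1 without D (0.0588).

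In the Hippo pathway, which tells outer from inner cells, 1 gene rose and 2 fell of 20, with a median of -0.01. That is 5% and 10%, near the 7.37% and 6.37% of all genes tested. Tead2, a partner of YAP, read 5.53 and 5.40 against 7.69 and 6.88 (1.82 ± 0.48, adjusted p = 0.0327). Ccn2, a YAP target, fell from 9.34 and 9.31 to 7.47 and 7.86 (-1.66 ± 0.35, 0.0126), and Lats1, the kinase that inhibits YAP, fell by 1.33 ± 0.25 (0.00781). Yap1 itself read 10.11 and 9.73 against 10.02 and 9.91. Of 27 DNA methylation and chromatin regulators 1 fell (3.7%, below the 6.37% of all genes tested), and with the block 1 rose and 2 fell. The falling gene was Kdm5b, a histone demethylase (-1.22 ± 0.26, 0.0131). Other probe sets gave 0.01 for Lats1 and 0.06 for Kdm5b, and neither passed as a mean over probe sets (0.201 and 0.23). Tead2 and Ccn2 were lost without any of the 4 arrays (up to 0.185 and 0.0849), and Lats1 and Kdm5b without A and D (up to 0.0795 and 0.125).

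**Figure D4:**
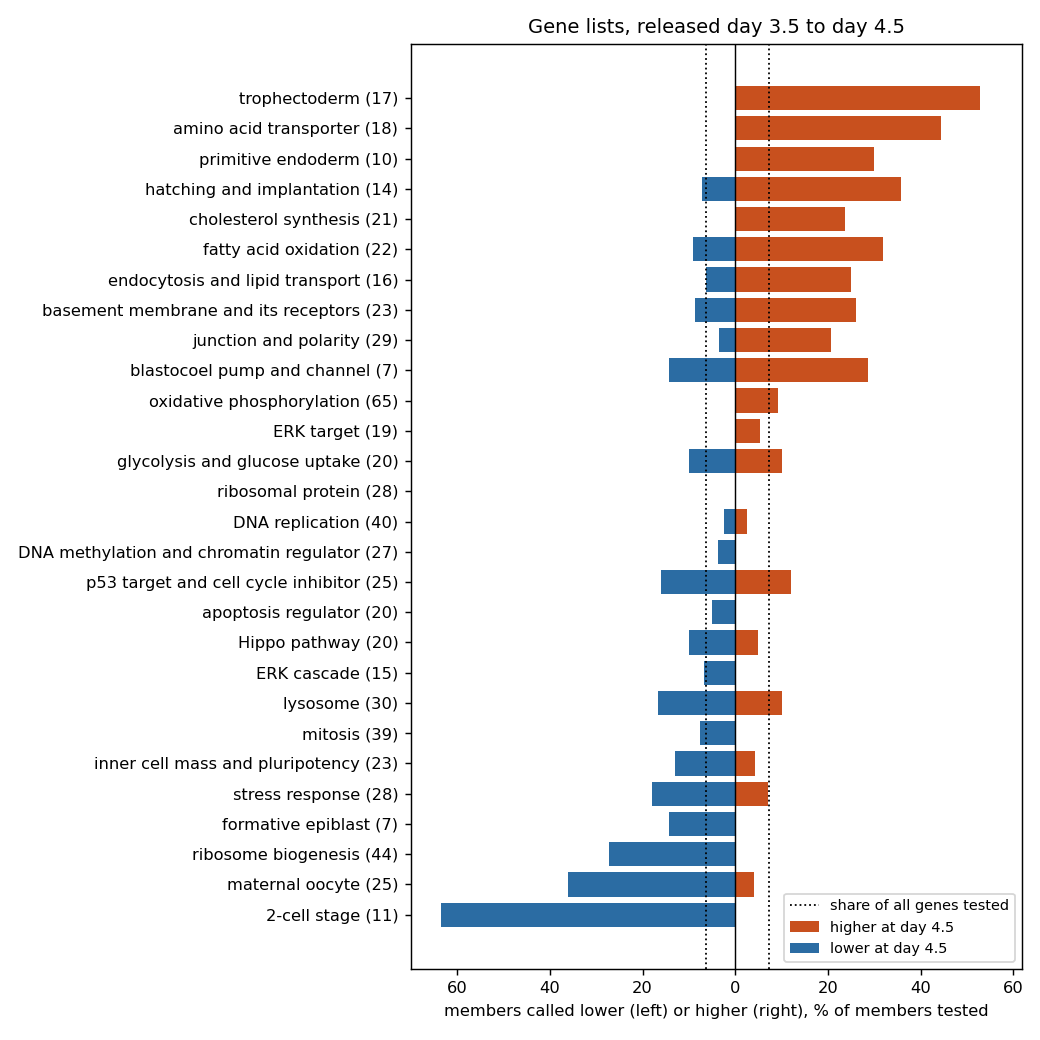
Share of the tested members of each list (number tested in brackets) called higher (orange, to the right) or lower (blue, to the left) from released day 3.5 to released day 4.5, in percent. Dotted lines mark the shares over all genes tested, 7.37% higher and 6.37% lower. The trophectoderm list (52.9%) and the amino acid transporter list (44.4%) reach farthest to the right and the 2-cell list (63.6%) farthest to the left.

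Untreated embryos pass from 4 to 8 cells to morula and blastocyst between control day 2.5 and control day 3.5, so that step was set beside the released step, with which it shares no array. The steps did not start alike. At control day 2.5 and released day 3.5 the means were 9.59 and 13.18 for Krt8, 7.41 and 9.18 for Cdx2 and 8.39 and 10.63 for Nanog. Pdgfra went the other way, at 6.82 and 5.38. A difference of the steps thus also holds the difference at their starts, and the part of each was not tested. Over genes the steps correlated with r = 0.553, as a description, since genes are not independent. Of the 732 rises, 353 (48.2%) were also called higher in the control step and 5 lower, and they make up 26.6% of the 1326 control rises (13.4% of all genes tested). Of the 633 falls, 251 (39.7%) were also called lower and 17 higher, or 30.5% of the 822 control falls (8.28%). The difference of the steps was called for 101 genes with a higher released step (1.02%) and 131 with a lower one (1.32%), or 232 in all (2.34%), 615 with the replicate block. Leaving out single arrays of the 8 gave 80 and 52 (control day 2.5, replicates 1 and 2), 115 and 37 (control day 3.5), 83 and 72 (released day 3.5) and 81 and 30 (released day 4.5).

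Among trophectoderm genes the difference was called for Elf5, Gata2 and Plac1, which were not called in the control step (0.25, 1.09 and 0.54). Elf5, Plac1 and Sox17 reached 5 only at released day 4.5, so their control steps lie below that level. Hardly any call but a positive one was open to these genes in this test. Elf5 had control means of 2.50 and 2.75 at days 2.5 and 3.5, and its released step exceeded its control step by 5.53 ± 0.60 (adjusted p = 0.00393). Sox17 (3.76, 0.0277), Pdgfra (3.32, 0.0377) and Dusp6 (3.09, 0.0129) also had a higher released than control step. Dusp6 fell in the control step, from a mean of 6.21 to 4.63. For Eomes the steps were alike in size, the difference being -0.16 (0.966).

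Nanog differed in the other direction. Its control means were 8.39 and 11.09, against released means from the 10.90 and 10.36 given above to 10.13 and 9.98, and the difference of the steps was -3.27 (adjusted p = 0.00924). Lama3, a laminin chain, had control means of 2.90 and 7.28 but read 6.48 and 6.26 and then 6.15 and 5.75 in released embryos (-4.80, 0.00117), and Rfx4 3.36 and 7.69 but 6.52 and 7.38 and then 6.43 and 7.16 (-4.48, 0.00717). Both were thus above their control day 2.5 means already at released day 3.5, as was Nanog. Hmox1 rose in the control step, from a mean of 2.71 to 4.97, and fell in the released one (-4.90, 0.00959).

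**Figure D5:**
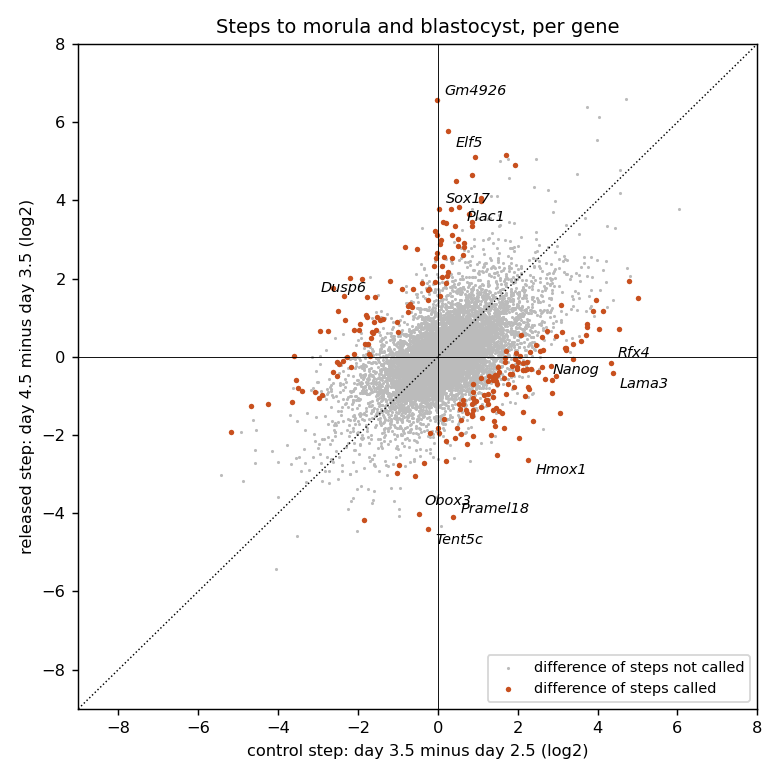
Released step (day 4.5 minus day 3.5, vertical) against control step (day 3.5 minus day 2.5, horizontal) for 9930 genes, both as differences of mean log2(intensity + 1) of 2 arrays. Orange points are the 232 genes whose steps differed by the test, and the dotted diagonal marks equal steps. Elf5 and Gm4926 lie near 0 on the control axis and above 5 on the released axis, and Nanog, Lama3 and Rfx4 near 0 on the released axis.

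The labelled source was checked against marker lists. On the 4 released arrays 0 of 10 cumulus and granulosa genes, 0 of 7 oviduct genes and 0 of 8 sperm genes reached 5, with highest levels between 3.79 and 4.63. Of 9 blood and immune genes 1 or 2 did, Laptm5, a lysosomal membrane gene, and Cd68, and Laptm5 rose from 7.89 and 9.13 to 10.80 and 10.37 (2.07 ± 0.46, adjusted p = 0.0161; 0.92 as a mean over 5 probe sets; lost without A, C and D, up to 0.130). Trophectoderm genes at or above 5 numbered 14 of 21 on both day 3.5 arrays and 16 on both day 4.5 arrays. Between 8237 and 8406 genes reached 5 on these 4 arrays.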

How the data were processed

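RNA of pooled embryos was labelled from 0.1 µg in 2 amplification cycles and hybridized to Affymetrix Mouse Genome 430 2.0 arrays, per the labels' protocols. The deposited values are linear intensity values per probe set. The submitters' processing notes name GCRMA, and the design text names GCOS 1.2 and GeneSpring 7.3.

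The values were taken as log2(intensity + 1). Of 45101 probe sets, 34958 carried 1 gene symbol, 932 several and 9160 none (controls left out). Each of 18194 genes was represented by its probe set with the highest mean, and the 9930 genes that reached 5 on 2 or more arrays entered the test. Genes that reached 5 only at released day 4.5 could rise but not fall in the released step. In the difference of steps these genes could hardly be called other than upward. They add to the shares of rises, also to the share over all genes tested. GCRMA shrinks signal near background, so levels below 5 have little order. In the released step, a difference of a gene below 5 on both arrays of 1 day is also given as a bound (at least), the distance from 5 to the other day's mean. No bound is given for a difference of steps, so its size can depend on levels below 5. All 12 arrays entered 1 model in limma 3.58.1 (R 4.3.3) with a mean per group, a script tested on simulated data. The fit had 6 residual and 4.51 prior degrees of freedom, and the median standard error of the step was 0.348. With 2 arrays per group, their number limits the precision. Adjusted p-values are Benjamini-Hochberg over all genes tested, also where a value stands alone in brackets.

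The 32 lists (852 entries, 773 on the array, 666 tested), the comparison and the rule for named genes were chosen with earlier results of these data known. The rule took the 12 largest rises and falls, the 6 largest of each among genes at or above 5 on all 4 arrays, up to 4 called genes per list, 22 key genes, and the 5 largest differences between steps in each direction. Other called list members are added where a group's account turns on them. Deviations from the group mean correlated between same-numbered arrays in all 15 pairs of groups (r from 0.125 to 0.417). The numbers were therefore taken to pair the arrays, but only in the fit with the replicate block. The main fit, which gave the stated differences, calls and adjusted p-values, ignores this pairing. Promoter windows and gene names come from RefSeq tables of assembly GRCm38.p6.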

Additional observations from a re-analysis of the deposited data

Results flagged for a closer look

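The results below are genes named in the report for which the released step, day 3.5 to day 4.5, and the control step, day 2.5 to day 3.5, differed by limma's test of the difference itself (2 arrays per group, adjusted over 9930 genes). Values are the released minus the control step on the log2 scale. Elf5, Plac1, Sox17, Lif, Bmp4 and Slc7a8 reached 5 only at released day 4.5. Hardly any call but a positive one was open to them. The values have no bounds, and those of Lama3, Rfx4, Pramel18, Elf5 and Sox17 rest in part on levels below 5.

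Among lineage genes the difference was 5.53 for Elf5, 2.97 for Gata2, 3.29 for Plac1, 3.76 for Sox17, 3.32 for Pdgfra, 3.15 for Tdgf1 and -3.27 for Nanog. Among genes of signalling and implantation it was 3.09 for Dusp6, 1.79 for Myc, 2.42 for Lif and 1.50 for Bmp4. Dusp6, the ERK-induced phosphatase, fell in the control step and rose in the released one, and Tdgf1, the Nodal co-receptor, rose in the released step after a control difference of -1.20 that was not called (adjusted p = 0.0998). Patj, the polarity scaffold, stood at 2.66 and Slc7a8, the amino acid exchanger, at 2.21. Hmox1, the heme oxygenase, stood at -4.90, and the lysosomal genes at -2.83 for Tpp1 and 1.96 for Glb1.

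Of the largest rises, the difference was 6.59 for Gm4926, 3.45 for Dmkn, 4.16 for Gulp1 and 2.99 for Tmsb4x. Gm4926, Dmkn and Gulp1 would not have been tested without their released day 4.5 arrays. For them, as for Elf5, hardly any call but a positive one was open. Keeping such a call without single arrays adds no support for it. Of the largest falls it was -4.16 for Tent5c, -2.34 for Stmn3, -4.48 for Pramel18 and -3.54 for Obox3. The largest differences in each direction also took in Limch1 (4.39), Fam189a2 (4.20), Lama3 (-4.80), Tex19.2 (-4.50) and Rfx4 (-4.48). Fam189a2 rose in the released step by 2.00 ± 0.46 (at least 0.60; limma adjusted p = 0.0187; lost without any of the 4 released arrays, up to 0.117). Limch1 (1.76, 0.0608) and Tex19.2 (-1.43, 0.0587) did not, and passed with the replicate block (0.0471 and 0.0137).

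Of these 29 genes, 6 kept the call without each of the 8 arrays in turn: Gm4926, Elf5, Obox3, Hmox1, Lama3 and Rfx4, whose highest limma adjusted p-values were then 0.00996, 0.0272, 0.0479, 0.0452, 0.0111 and 0.0364. The other 23 lost it without at least 1 array, with highest adjusted p-values from 0.0518 (Nanog) to 0.186 (Stmn3).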

How the results depend on the processing

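The 1365 calls of the step became 1565 with log2(intensity + 16), 1167 without the filter, 1417 with the filter on the released groups alone, 1180 at a level of 7, 1417 after median centring, 1449 after quantile normalization, 1223 with means over probe sets, 1168 from the 4 arrays alone and 1514 with limma-trend. The replicate block gave 2165 (1089 higher and 1076 lower), 615 for the difference of steps and 216 for list members called, and the cause was not tested. It ended no call of a named gene and added those of Cdx2, Krt8, Krt18, Pou5f1, Limch1 and Tex19.2. Without single arrays, and so with fewer samples, the step gave 321 to 759 calls (200 to 428 higher, 121 to 331 lower), the difference of steps 30 to 115 and list members 37 to 79. Of 113 named calls, 48 held without each of the 4 arrays. Without the filter, with 18194 genes tested, 19 named calls missed the threshold, and 19 did in the 4 arrays alone, with Gm20767, Usp17la, AF067061, Foxq1, Herpud1, Bysl, Ndufa13, Mvk and Ctsz among both. With means over probe sets 9 did (Ccna2, Racgap1, Hk1, Apom, Kdm5b, Lats1, Il6st, Slc7a1 and Fgfr2), and with log2(intensity + 16) 3 did (Foxq1, Pfkp and Apom). The cause was not tested for these. Another expressed probe set had the opposite sign for 5 called named genes (Racgap1, Ndufs4, Kdm5b, Lats1 and Fgfr2). Among the alternatives, directions turned for uncalled genes, on leaving out single arrays, with ranges of -0.83 to 0.28 for Gata6, -0.63 to 0.37 for Gata4, -0.09 to 0.25 for Myc and -0.58 to 0.28 for Rfx4. Genes below 5 carry little signal over background, which limits the size of their differences.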
